A study of Mus musculus with 4 samples.

Results

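Mest and 7 other genes linked with the enlargement of fat cells were followed in the epididymal adipose tissue of mice. The others were Sfrp5, Npr3, Bmp3, Nnat, Cav1, Cav2 and Ptrf, which current annotation calls Cavin1. They were taken by name, with 1 probe set each, and make up 8 of the 18820 genes measured. All 8 were among the 11292 genes whose signal was high enough for testing. The 4 arrays covered 3 groups. KO arrays 1 and 2 came from CD1d-/- mice, which lack CD1d, a molecule that shows lipids to natural killer T cells, on a low-fat diet (10 kcal% fat). One array came from wild type (WT) mice on a high-fat diet (45 kcal% fat) and 1 from WT mice on the low-fat diet. The null allele was carried on the C57BL/6 background after 10 to 12 generations of backcrossing. The mice ate chow to an age of 10 to 11 weeks and their diet for a further 18 to 19 weeks. RNA of 4 to 6 mice was pooled within a group, so animals cannot be told apart, and neither WT group has a replicate. Whether KO arrays 1 and 2 came from different pools of mice is unstated, so the spread behind every p-value is that of 1 pair of arrays and may be technical.

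White fat grows by enlarging its adipocytes and by adding new ones. Mest, also called Peg1, is an imprinted gene read from the paternal copy, and its transcript in mouse fat is known to climb while the pad is expanding. Sfrp5, a secreted antagonist of Wnt ligands, and Bmp3, an atypical bone morphogenetic protein that opposes BMP signalling, are known to vary alongside it in mouse fat. Caveolae, flask-shaped pits that cover much of the adipocyte membrane, are built from caveolins (Cav1, Cav2) and the coat protein cavin-1 (Ptrf), and take part in insulin signalling and fatty acid uptake.

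The sequences upstream of Mest, Sfrp5 and Nnat are shown because Mest and Sfrp5 had the largest diet differences of the 8 genes, while Nnat, imprinted like Mest, had the smallest. Promoter entries of RefSeq (build GRCm38.p6) matched 7 of the 8 genes, all but Bmp3. Each line gives the 250 bases before an annotated start, read 5′ to 3′ on the gene's strand. Capitals mark the dinucleotide CG, the site of DNA methylation, which reads the same on both strands.
Mest, downstream start, chr6:30737800-30738049, plus strand: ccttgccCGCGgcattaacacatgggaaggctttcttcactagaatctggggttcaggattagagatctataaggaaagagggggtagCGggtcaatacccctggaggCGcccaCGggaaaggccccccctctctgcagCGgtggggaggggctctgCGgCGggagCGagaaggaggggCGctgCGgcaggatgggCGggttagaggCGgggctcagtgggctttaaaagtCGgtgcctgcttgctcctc
Mest, upstream start, chr6:30733256-30733505, plus strand: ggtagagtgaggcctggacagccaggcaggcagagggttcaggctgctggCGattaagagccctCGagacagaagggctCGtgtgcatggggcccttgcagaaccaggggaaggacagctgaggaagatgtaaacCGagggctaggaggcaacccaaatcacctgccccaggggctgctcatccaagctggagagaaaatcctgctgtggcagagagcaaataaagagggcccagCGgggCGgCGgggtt
Sfrp5, chr19:42202253-42202502, minus strand: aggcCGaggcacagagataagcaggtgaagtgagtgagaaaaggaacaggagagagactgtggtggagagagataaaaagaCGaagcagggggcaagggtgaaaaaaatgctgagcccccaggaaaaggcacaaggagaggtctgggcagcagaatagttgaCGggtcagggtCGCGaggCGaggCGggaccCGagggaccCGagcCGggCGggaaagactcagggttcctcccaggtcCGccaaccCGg
Nnat, chr2:157559828-157560077, plus strand: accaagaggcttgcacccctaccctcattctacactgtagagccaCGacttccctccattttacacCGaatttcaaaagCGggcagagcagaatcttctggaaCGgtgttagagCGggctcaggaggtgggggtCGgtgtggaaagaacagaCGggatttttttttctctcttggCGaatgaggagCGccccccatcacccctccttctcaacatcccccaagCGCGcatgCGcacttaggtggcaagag
The window at the downstream Mest start held 14 CG sites and the one at the upstream start 7. The Sfrp5 window held 13 and the Nnat window 12. Among 32851 windows of the same length in the table, the median was 6. At least 14 CG sites were present in 29.4% of the windows, at least 13 in 31.5%, at least 12 in 33.5% and at least 7 in 46.3%. Methylation was not measured, and the probe sets do not say which Mest start was used.

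Cd1d1 matched the labels, with log2 intensities of 3.74 and 3.98 on KO arrays 1 and 2, against 11.80 on the WT low-fat array (limma adjusted p = 0.00646, and 0.0932 when genes of low signal were also tested). The 2 KO arrays differed widely, as seen in the plot of marker lists. Of 13 macrophage markers, 10 were at least 1.5-fold higher on KO array 2 than on KO array 1, where 14.8% of all tested genes were, and 6 of 9 smooth muscle markers at least 1.5-fold lower, where 4.45% were. Across the 11292 genes, KO array 2 correlated most with the WT high-fat array (Pearson's r = 0.981), and KO array 1 with the WT low-fat array (r = 0.970). The KO arrays correlated with each other at r = 0.943, and genes are not independent replicates. The median difference of all tested genes from the WT low-fat array came to −0.17 for KO array 1, −0.02 for KO array 2 and 0.05 for the WT high-fat array, on the log2 scale used for all differences here. The 14 measured adipocyte markers all lay above the median of every array. Their summed intensity was 102922 and 100472 on KO arrays 1 and 2, 100525 on the WT high-fat array and 102825 on the WT low-fat array.

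**Figure D1:**
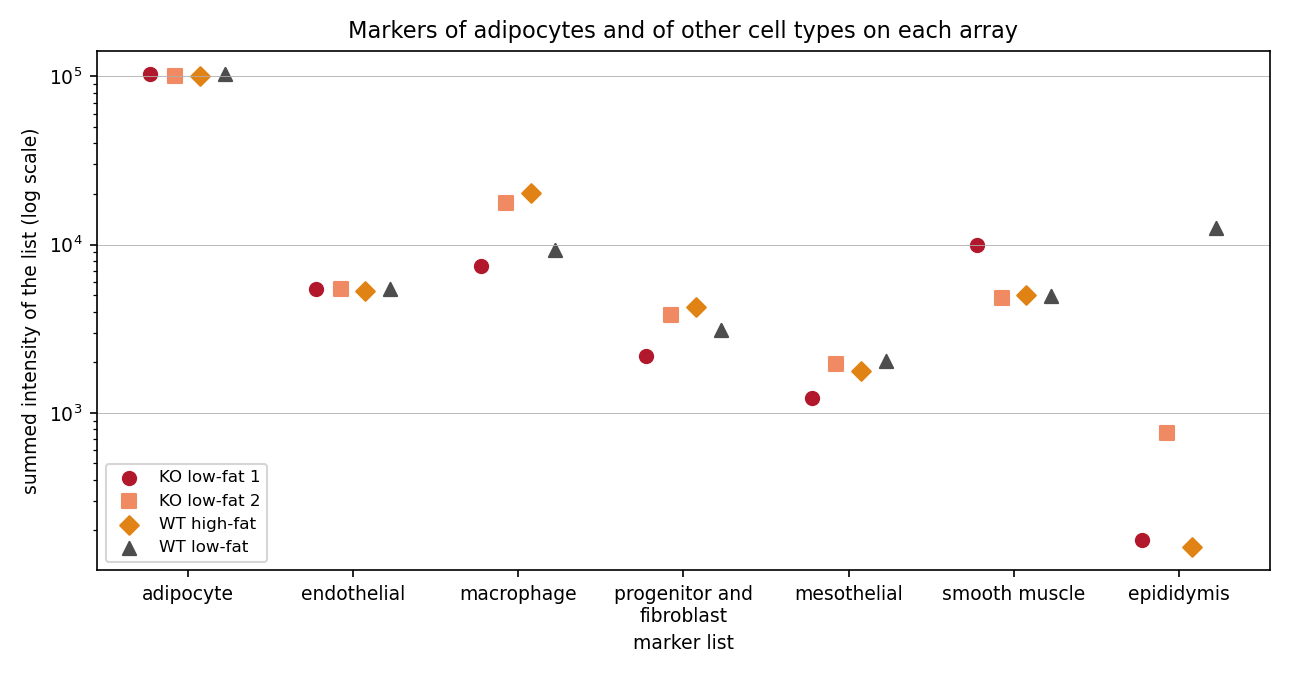
Summed linear intensity of 7 marker lists (log scale) on KO array 1, KO array 2, the WT high-fat array and the WT low-fat array. The adipocyte sums lie close together, macrophage sums are 7441 and 17773 for KO arrays 1 and 2, 20210 for WT high-fat and 9258 for WT low-fat, and epididymis sums stand out on the WT low-fat array at 12483.

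Mest, which encodes an enzyme-like protein of the endoplasmic reticulum, separated the arrays into a high and a low pair. Its level (probe set 10537062) was 11.87 on KO array 1 and 12.68 on KO array 2, with 12.76 on the WT high-fat array and 11.85 on the WT low-fat array. The high pair thus joined KO array 2 with the high-fat array, and the low pair joined KO array 1 with the WT low-fat array, with no array between. The high-fat array was 1.88-fold above the WT low-fat array, a difference of 0.91 that exceeded that of 97.0% of the tested genes. KO array 2 was 1.76-fold above KO array 1, although genotype and diet were the same. The KO mean was 12.28 ± 0.58 (SD, n = 2), against 11.85 on the WT low-fat array, a difference of 0.42 with a 95% interval of −0.64 to 1.49.

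Transcripts next to Mest were also read. Mir335, a microRNA gene inside a Mest intron, was at 6.06 and 5.86 on KO arrays 1 and 2, 6.15 on the WT high-fat and 5.88 on the WT low-fat array, not far above the array medians of 5.68 to 5.71. Copg2, whose 3′ end overlaps that of Mest on the opposite strand, was at 9.27 and 9.53 on KO arrays 1 and 2, 9.54 on the WT high-fat array and 9.58 on the WT low-fat array. Klf14, an imprinted transcription factor gene farther along that region, was at 7.65 and 7.90 on KO arrays 1 and 2, 7.91 on the WT high-fat array and 7.50 on the WT low-fat array. None of these 3 genes, chosen after their values were seen, was 1.5-fold apart between the diets or between the KO arrays. Mest was in both comparisons. With high-fat diet, 7.72% of all tested genes were at least 1.5-fold higher and 3.82% lower. From KO array 1 to KO array 2, 14.8% were higher and 4.45% lower. Most tested genes thus also stayed under 1.5-fold, so these 3 genes cannot show whether the difference was particular to Mest.

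**Figure D2:**
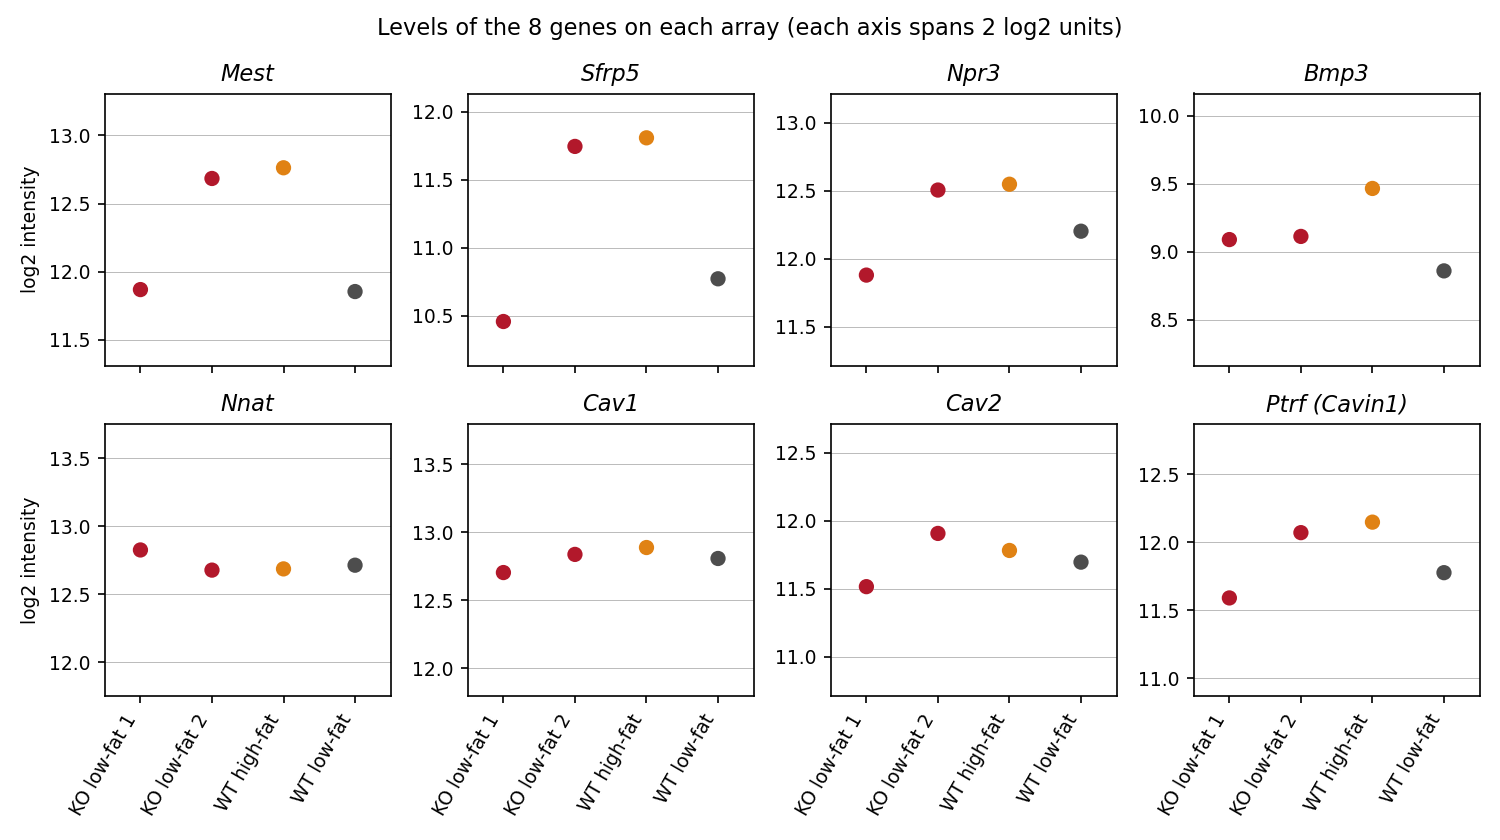
Log2 intensity (vertical axes, each spanning 2 log2 units) of the 8 genes on KO arrays 1 and 2, the WT high-fat array and the WT low-fat array, with 1 point per array. Mest and Sfrp5 were high on KO array 2 and the WT high-fat array and low on the other 2 arrays. Bmp3 was highest on the WT high-fat array with nearly equal KO values of 9.09 and 9.11, and Nnat and Cav1 varied little.

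Sfrp5, the Wnt antagonist, split the arrays as Mest did and over a wider range. Its level (probe set 10467744) was 10.46 and 11.75 on KO arrays 1 and 2, 11.81 on the WT high-fat array and 10.77 on the WT low-fat array. The high-fat array was 2.05-fold above the WT low-fat array, and KO array 2 was 2.44-fold above KO array 1. The KO mean of 11.10 ± 0.91 (SD, n = 2) spanned the WT low-fat level, with a difference of 0.33 (95% interval −1.07 to 1.72).

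Of the 24 tested ligands, receptors and antagonists, Sfrp5 included, 5 reached 1.5-fold in favour of high-fat diet and 0 in favour of low-fat diet, where 7.72% and 3.82% of all tested genes did. Their median difference was 0.14, beside 0.05 for all tested genes. Besides Sfrp5 they were Sfrp1, Nkd1, Fzd7 and Wnt5a, of which the last 2 are a Wnt receptor gene and a Wnt ligand gene named after their values were seen. Sfrp1, a relative of Sfrp5, was at 6.50 and 8.37 on KO arrays 1 and 2, 8.54 on the WT high-fat and 7.51 on the WT low-fat array. Nkd1, an intracellular antagonist of the pathway, was at 8.02 and 8.71 on KO arrays 1 and 2, 9.02 on the WT high-fat and 8.10 on the WT low-fat array. At the other end, Axin2, a target and brake of canonical Wnt signalling, was at 6.38 on the high-fat array against 6.96 on the WT low-fat array. Axin2 was thus 1.492-fold lower on high-fat diet, just short of the 1.5-fold line. Fzd6, a receptor gene, was at 6.09 on the high-fat array against 6.59 on the WT low-fat array.

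Sfrp2, another secreted Wnt antagonist, ran a different way from Sfrp5. It was at 7.78 and 7.48 on KO arrays 1 and 2, 8.89 on the WT high-fat array and 8.96 on the WT low-fat array, so both KO arrays lay below both WT arrays. The KO difference from the WT low-fat array was −1.33 with a standard error of 0.33 and did not pass the test (limma adjusted p = 1). Of 24 tested Wnt genes, Sfrp2 and the ligand gene Wnt2b were at least 1.5-fold lower than WT low-fat on both KO arrays. Of all tested genes, 0.770% were. Wnt2b was at 6.39 and 6.59 on KO arrays 1 and 2, 6.83 on the WT high-fat array and 7.30 on the WT low-fat array. KO arrays 1 and 2 were thus 1.36-fold and 1.18-fold below the high-fat array, which was itself 1.38-fold below the WT low-fat array. The KO difference of Wnt2b from the WT low-fat array, −0.81 (standard error 0.32), did not pass the limma test either. Both genes were named after their values were seen.

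Npr3 encodes the natriuretic peptide clearance receptor, which removes these lipolytic hormones from the surroundings of the fat cell. Its level (probe set 10427796) was 11.88 and 12.51 on KO arrays 1 and 2, 12.55 on the WT high-fat array and 12.20 on the WT low-fat array. The difference between KO array 2 and KO array 1 was 1.54-fold, and that between the high-fat and the WT low-fat array 1.27-fold. The WT low-fat level therefore lay between the KO values, and the KO mean of 12.19 ± 0.44 (SD, n = 2) was 0.01 below it.

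Among 7 tested natriuretic peptide genes, 0 were 1.5-fold apart between the diets, with a median difference of 0.01. Of all tested genes, 7.72% were at least 1.5-fold higher on high-fat diet and 3.82% lower, so 0 of 7 is close to those shares. Npr1, the signalling receptor for atrial natriuretic peptide, was at 7.45 and 7.61 on KO arrays 1 and 2, 8.10 on the WT high-fat array and 8.22 on the WT low-fat array. Npr1, named after its values were seen, was the gene of this list at least 1.5-fold lower than WT low-fat on both KO arrays. Of all tested genes, 0.770% were. Npr1 did not pass the test (difference −0.69, standard error 0.31, limma adjusted p = 1). Prkg1, a cGMP-dependent kinase acting below the receptor, was at 5.82 on the high-fat array against 5.62 on the WT low-fat array. Furin, a protease that processes natriuretic peptide precursors, was at 8.73 on the high-fat array against 8.55 on the WT low-fat array. Npr2, the receptor for C-type natriuretic peptide, was at 9.34 on the high-fat array against 9.53 on the WT low-fat array. Pde5a, which breaks down cGMP, was at 6.06 on the high-fat array against 6.31 on the WT low-fat array.

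Bmp3 departed from the 2-pair pattern. Its level (probe set 10523506) was 9.09 and 9.11 on KO arrays 1 and 2, 9.47 on the WT high-fat array and 8.86 on the WT low-fat array. The KO values were close together and lay between those of the diets. The KO mean of 9.10 ± 0.02 (SD, n = 2) was 0.24 above the WT low-fat level (standard error 0.31). The high-fat array was 1.52-fold above the WT low-fat array, a difference of 0.61, and 0.53 after quantile normalization, under the 1.5-fold line. The closeness of the KO values was also not independent of scaling, since KO array 2 was 0.02 above KO array 1 as deposited and 0.11 below it after quantile normalization.

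Of 23 tested BMP and activin genes, Bmp3 was the 1 that high-fat diet had 1.5-fold or more above low-fat, and Id1, a transcriptional target of BMP signalling, was the 1 at least 1.5-fold lower, beside 7.72% and 3.82% of all tested genes. Id1 was at 8.44 and 7.52 on KO arrays 1 and 2, 7.45 on the WT high-fat array and 8.21 on the WT low-fat array. KO array 2 and the high-fat array were the low pair of Id1, where they were the high pair of Mest. Bmpr2, a BMP receptor gene, was at 9.86 and 10.76 on KO arrays 1 and 2, 10.84 on the WT high-fat array and 10.27 on the WT low-fat array. Inhbb, which encodes an activin subunit, was at 8.23 on the high-fat array against 7.71 on the WT low-fat array, and Bmp7, a ligand gene, at 6.23 against 6.81. Bmp7, 1.495-fold lower on high-fat diet, and Bmpr2, 1.484-fold higher, were just short of the 1.5-fold line. The list had a median diet difference of 0.02.

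Nnat, an imprinted gene for a small membrane protein of the endoplasmic reticulum, was nearly level. It was at 12.83 and 12.68 on KO arrays 1 and 2 (probe set 10477986), 12.69 on the WT high-fat array and 12.71 on the WT low-fat array. The diet difference was −0.03 and the difference between KO arrays 2 and 1 was −0.15. Blcap, the gene in whose intron Nnat lies, was at 8.32 and 7.92 on KO arrays 1 and 2, 8.03 on the WT high-fat array and 8.33 on the WT low-fat array.

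Of 21 tested imprinted genes, Mest, Igf2r, Peg10 and Slc38a4 were 1.5-fold or more above the WT low-fat array on high-fat diet and 0 below, beside 7.72% and 3.82% of all tested genes, and the median diet difference was 0.03. The same 4 genes also differed by 1.5-fold or more between KO array 2 and KO array 1, with array 2 higher, as did 78.0% of all genes past 1.5-fold in favour of high-fat diet. Peg10, derived from a retrotransposon, was at 9.27 and 10.51 on KO arrays 1 and 2, 10.35 on the WT high-fat array and 9.52 on the WT low-fat array. Slc38a4, an amino acid transporter gene, was at 5.35 and 6.10 on KO arrays 1 and 2, 6.07 on the WT high-fat array and 5.38 on the WT low-fat array, near the array medians. Igf2r, the receptor that clears IGF2 (named after its values were seen), was at 8.42 and 9.03 on KO arrays 1 and 2, 9.40 on the WT high-fat array and 8.81 on the WT low-fat array. Dlk1, an inhibitor of adipocyte differentiation, and Cdkn1c, a cell cycle inhibitor, were at the low end of the diet differences. Dlk1 was at 5.66 on the high-fat array, near the array median, against 6.24 on the WT low-fat array. At 1.494-fold lower, Dlk1 was just short of the 1.5-fold line that Igf2r just passed (1.509-fold higher). Cdkn1c differed by −0.34.

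The 3 caveola genes among the 8 differed less than Mest and Sfrp5 between the diets and between the KO arrays. Cav1, the main caveolin of adipocytes, was at 12.70 and 12.84 on KO arrays 1 and 2 (probe set 10536499), 12.89 on the WT high-fat array and 12.81 on the WT low-fat array. Cav2, its partner in the coat and its neighbour in the genome, was at 11.52 and 11.91 on KO arrays 1 and 2 (probe set 10536494), 11.78 on the WT high-fat array and 11.70 on the WT low-fat array. Ptrf was at 11.59 and 12.07 on KO arrays 1 and 2 (probe set 10391332), 12.15 on the WT high-fat array and 11.78 on the WT low-fat array. None of the 3 was 1.5-fold apart between any 2 of the arrays. Of all tested genes, 7.72% were at least 1.5-fold higher and 3.82% lower on high-fat diet. Between KO arrays 2 and 1, 14.8% were higher and 4.45% lower. Ptrf came nearest to the line, 1.47-fold lower on KO array 1 than on the high-fat array, where 20.3% of all tested genes were at least 1.5-fold lower. The diet difference was 0.37 for Ptrf, 0.09 for Cav2 and 0.08 for Cav1, and those between KO arrays 2 and 1 were 0.48, 0.39 and 0.13. The diet difference of Ptrf exceeded that of 83.1% of the tested genes.

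Of the 10 tested caveola coat and neck genes, 2 reached 1.5-fold in favour of high-fat diet, Pacsin2 only just (1.501-fold), where 7.72% of all tested genes did. A single one, Pacsin3, was at least 1.5-fold lower, where 3.82% were, and the median difference was 0.22. Ehd4, a membrane-remodelling ATPase gene, was at 8.10 and 8.97 on KO arrays 1 and 2, 9.06 on the WT high-fat array and 8.05 on the WT low-fat array. Pacsin2, which shapes caveola necks, was at 8.64 and 9.25 on KO arrays 1 and 2, 9.44 on the WT high-fat array and 8.86 on the WT low-fat array. Its relative Pacsin3, best known in muscle, was at 6.17 and 5.82 on KO arrays 1 and 2, 5.85 on the WT high-fat array and 6.47 on the WT low-fat array. Ehd1, at 9.51 on the high-fat array and 9.50 on the WT low-fat array, was level. Endothelial cells also carry caveolae, and 0 of 10 endothelial markers were 1.5-fold apart between the diets or between the KO arrays. Of all tested genes, 7.72% were higher and 3.82% lower on high-fat diet, and 14.8% higher and 4.45% lower on KO array 2 than on KO array 1. Kdr, an endothelial marker named after its values were seen, was just short of the line, 1.497-fold lower on KO array 2.

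**Figure D3:**
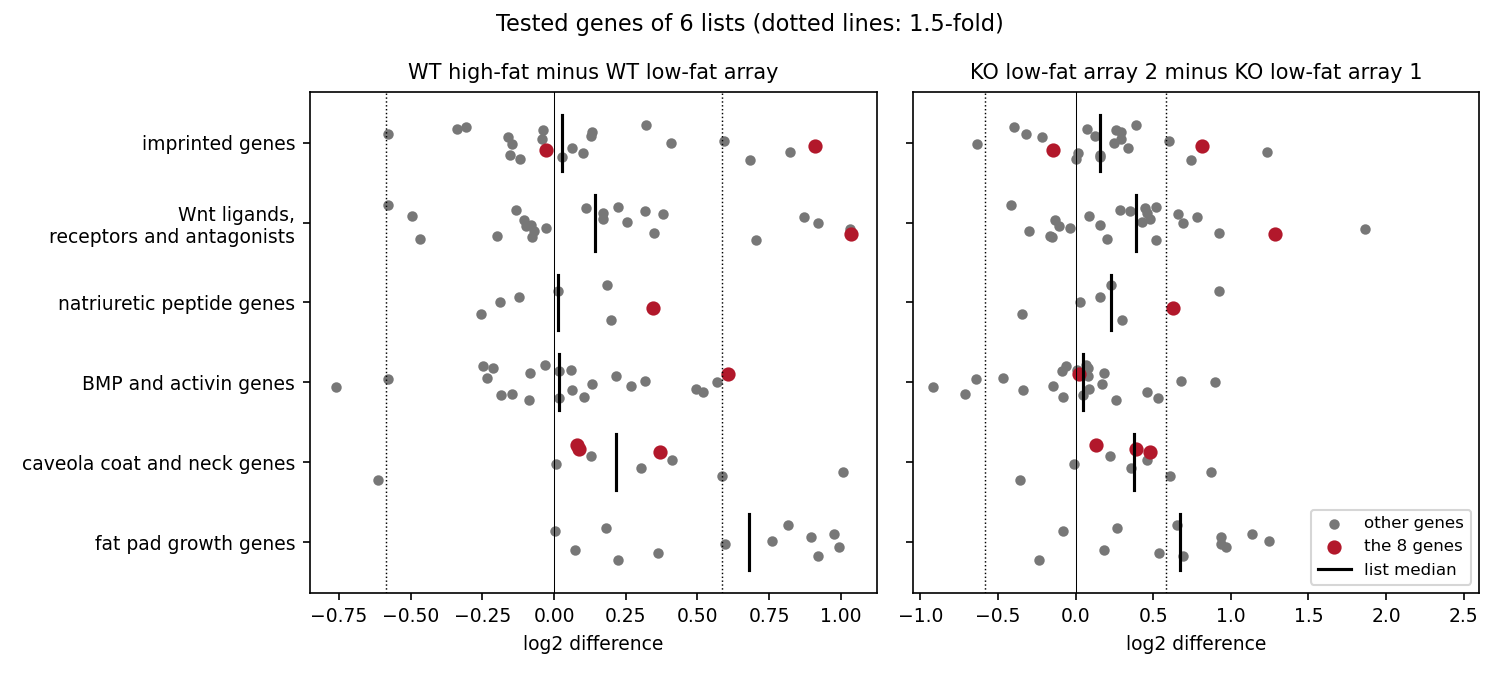
Log2 differences (horizontal axes) between the WT high-fat and WT low-fat arrays (left) and between KO arrays 2 and 1 (right) for the tested genes of 6 lists. Points are genes, red points belong to the 8 genes, bars are list medians and dotted lines mark 1.5-fold. Mest and Sfrp5 lie at the right edge of their lists in the diet comparison, while the list medians there are 0.03 and 0.14.

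Among 12 tested fat pad growth genes other than the 8, 7 reached 1.5-fold in favour of high-fat diet, where 7.72% of all tested genes did, with a median difference of 0.68. The list was chosen with earlier results of these data known, so its count is a description and not a test. Lep, the gene of the appetite-lowering hormone leptin, was at 11.97 and 12.93 on KO arrays 1 and 2, 12.85 on the WT high-fat array and 11.85 on the WT low-fat array. Col6a1, a collagen VI chain gene, was at 8.62 and 9.76 on KO arrays 1 and 2, 9.89 on the WT high-fat array and 8.91 on the WT low-fat array. The others were Nkd1 and, named after their values were seen, Hif1a, Col6a2, Col6a3 and Angpt2. The same 7 genes also reached 1.5-fold on KO array 2 over KO array 1, a step shared by 78.0% of all genes past 1.5-fold in favour of high-fat diet. Lpl and Apln, the lowest of the list, had diet differences of 0.07 and 0.0046.

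Between the diets, 3 of the 8 genes, Mest, Sfrp5 and Bmp3, reached 1.5-fold in favour of high-fat diet, where 7.72% of all tested genes were. None was at least 1.5-fold lower, where 3.82% of all tested genes were. The median difference of the 8 genes was 0.36, beside 0.05 for all tested genes. With 1 array a diet, no test could be made. The 8 genes were also chosen with earlier results of these data known, so their count beside the share of all genes is descriptive. Macrophage markers differed alongside, 9 of 13 reaching 1.5-fold in the same direction. The 10 measured epididymis markers summed to 160.0 on the high-fat array, with 10 of 10 under the array median, against 12483 on the WT low-fat array, with 3 of 10 under it. Of the adipocyte markers, 1 of 14, the triglyceride synthesis gene Dgat2 (named after its values were seen), was at least 1.5-fold higher and 0 lower. The part of macrophage and epididymal RNA in the differences of the 8 genes was not tested. In such bulk tissue, fewer cells of a type and less RNA per cell cannot be told apart.

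Between KO and WT on the low-fat diet, none of the 8 genes passed the test. In limma each had an adjusted p = 1, and 0 of the 8 had an unadjusted p under 0.05, the smallest being 0.364 for Mest. Over all tested genes limma called 0.00% higher and 0.0443% lower, and an unadjusted p under 0.05 was reached by 0.363% higher and 0.452% lower. Besides Cd1d1, the lower calls were 4 epididymis markers, which passed the signal filter only through their level on the WT low-fat array. The 10 measured epididymis markers summed to 176 and 754 on KO arrays 1 and 2, against 12483 on the WT low-fat array. The differences of KO from WT low-fat ran from −0.04 for Cav1 to 0.42 for Mest, with standard errors of 0.31 to 0.56, and all 8 lay above the median of all tested genes, −0.09. The intervals of Mest and Sfrp5 reach past 1 on the log2 scale, so these p-values do not show that KO and WT levels were alike. By size, 0 of the 8 were at least 1.5-fold higher on both KO arrays, where 0.584% of all tested genes were, and 0 at least 1.5-fold lower on both, where 0.770% were. On KO array 2 alone, Mest (1.78-fold) and Sfrp5 (1.96-fold) were at least 1.5-fold above the WT low-fat array, where 5.54% of all tested genes were. On KO array 1 alone 0 of the 8 were, where 1.93% of all tested genes were. None of the 8 was at least 1.5-fold lower on either array, with 5.02% of all tested genes lower on the first KO array and 4.60% on the second.

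KO mice on the low-fat diet were also set against WT mice on the high-fat diet, a comparison in which genotype and diet cannot be told apart and which shares the KO arrays with the one before. Each of the 8 genes had an adjusted p = 0.999 in limma, where 0.00% of all tested genes were called higher and 0.00886% lower, and 0 of the 8 had an unadjusted p under 0.05, where 0.762% of all tested genes were higher and 0.363% lower at that level. On both KO arrays, 0 of the 8 were at least 1.5-fold higher, where 0.948% were, and 0 at least 1.5-fold lower, where 0.788% were. The differences ran from −0.71 for Sfrp5 and −0.49 for Mest to 0.07 for Nnat. On KO array 1 alone, Mest, Sfrp5 and Npr3 were at least 1.5-fold lower than on the high-fat array, where 20.3% of all tested genes were, and 0 of the 8 were higher, where 4.56% were. On KO array 2 alone 0 of the 8 were lower, where 1.31% were, and 0 were higher, where 1.57% were.

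The diet difference and the difference between the KO arrays use no array in common. Across the 11292 tested genes, which are not independent replicates, they correlated with Pearson's r = 0.517 and Spearman's rho = 0.703. Of the genes 1.5-fold or more above on high-fat diet, 78.0% were also at least 1.5-fold higher on KO array 2 than on KO array 1, and of the genes higher between the KO arrays 40.6% were also higher between the diets. Mest and Sfrp5 did both, as did 6.02% of all tested genes. Between the KO arrays, Mest, Sfrp5 and Npr3 were at least 1.5-fold higher on array 2, where 14.8% of all tested genes were, and 0 of the 8 at least 1.5-fold lower, where 4.45% were. On KO array 2, 6 of the 8 genes were nearer to their high-fat than to their WT low-fat level, the exceptions being Bmp3 and Cav1, where 65.9% of all tested genes were nearer. On KO array 1, 8 of the 8 were nearer to the WT low-fat level, where 70.7% of all tested genes were. Macrophage markers divided the arrays the same way, summing to 7441 and 17773 on KO arrays 1 and 2, 20210 on the WT high-fat array and 9258 on the WT low-fat array. Their part in the levels of the 8 genes was not tested.

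**Figure D4:**
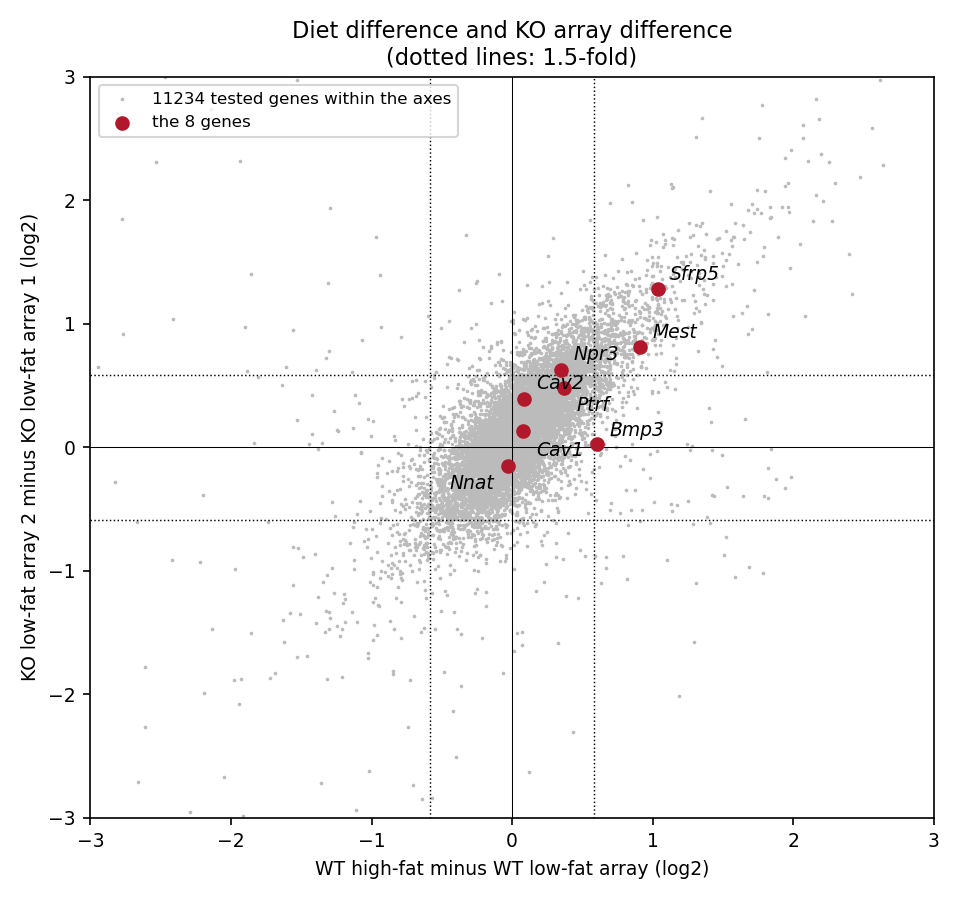
Log2 difference between the WT high-fat and WT low-fat arrays (horizontal) against that between KO arrays 2 and 1 (vertical), for the 8 genes (red) and 11234 tested genes within the axes (grey, 58 others lie outside), with dotted lines at 1.5-fold. Sfrp5 (1.04 and 1.29) and Mest (0.91 and 0.82) lie beyond 1.5-fold on both axes, and Bmp3 (0.61 and 0.02) on the horizontal axis alone.

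The genes most like Mest were found by the root mean square (RMS) distance between their 3 differences from the WT low-fat array and those of Mest, over 4 arrays. The nearest was Ifi207, an interferon-inducible gene (RMS 0.05), at 10.36 and 11.21 on KO arrays 1 and 2, 11.18 on the WT high-fat array and 10.33 on the WT low-fat array. It was followed by Irf5, a transcription factor gene of macrophages (0.06), Bcar3, an adaptor protein gene (0.06), Tfpi2, a protease inhibitor gene (0.07), and Tyrobp, which encodes the signalling adaptor DAP12 of myeloid cells (0.07). Sfrp5 was at 0.22, with 181 tested genes nearer to Mest when no kind of gene was left out.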

How the data were processed

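Gene expression was measured on 4 arrays of epididymal fat, each hybridised with cDNA from 100 ng of pooled RNA. The authors deposited 1 linear intensity per probe set and array, which the submitters' processing notes credit to RMA and R 2.15.0. Their genome build and annotation: not given in the sources used here. Since the planned test was for log2 values, log2 of the intensity (5.71 to 20092) was taken first, with no further normalization, and unmapped value columns numbered 0.

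The platform annotation listed 1 symbol for 21218 of 35556 probe sets, several for 1881 and none for 12457. The probe set with the highest mean was kept for each of the 1386 genes with several, giving 18820 genes. Genes at or above the 40th percentile of mean level (5.45) were tested by limma 3.58.1 (R 4.3.3) as group means with eBayes, two-sided tests and Benjamini-Hochberg adjustment over 11292 genes at 0.05. Residual degrees of freedom numbered 1, all from the KO replicates, and prior ones 4.62, and each lone WT array was taken to vary as the KO replicates do. The fit was tested on simulated data with 2 noise models. With each gene's moderated spread, tried first, more unchanged genes were called than the adjustment allows, and with variances drawn from the fitted prior, added after that outcome, they were not, so the error rate of the limma calls depends on how variances are distributed. The number of arrays limits the precision.

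The 8 genes and the 13 lists beside them, with 199 measured and 161 tested genes, were chosen with earlier results of these data known. Named genes were the 8, Cd1d1, the 2 highest and 2 lowest diet differences of each list that is not of cell type markers (those lists were summarised), and the 5 genes most like Mest. Others are stated as chosen later. Promoters are from RefSeq, GRCm38.p6. Alternatives covered the filter, scaling, probe set rule, fold, variance model, groups fitted and each KO array. Plots used matplotlib 3.10.9 (Python 3.11.15).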

Additional observations from a re-analysis of the deposited data

How the results depend on the processing

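The precision was limited by 1 array for each WT group and 2 KO arrays that differed widely, and the cause of that gap was not tested. No paired analysis was possible, since each WT group had 1 array of pooled RNA and nothing in the labels links it to a KO array. The 8 genes kept their side of the limma threshold, with 0 called, under every alternative fitted. The 1.5-fold calls of Mest and Sfrp5 held after centring and after quantile normalization. Dropping the filter or averaging probe sets could not change their values, since each gene has 1 probe set. Bmp3 fell under the line with quantile normalization, which left 2 of the 8 genes past 1.5-fold between the diets. Mest on KO array 1 was 0.01 above the WT low-fat array as deposited and 0.02 below it after that normalization.

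At 2-fold in place of 1.5-fold, Sfrp5 was the 1 of the 8 genes higher on the high-fat array, the 1 higher on KO array 2 than on KO array 1, and the 1 in both. Of all genes, 274 were then higher and 157 lower with high-fat diet, 464 higher and 148 lower on KO array 2 than on KO array 1, and 200 higher in both. On both KO arrays, 14 were higher and 29 lower than WT low-fat, and 55 higher and 16 lower than WT high-fat. Without the low-signal filter, 160 genes were higher on both KO arrays than on the WT low-fat array and 233 than on the WT high-fat array, against 66 and 107 with it. The limma count of lower genes, 5 against WT low-fat and 1 against WT high-fat, became 0 and 0 without the filter, where Cd1d1 had an adjusted p of 0.0932. The first was 1 with centring, 3 with quantile normalization and 3 with probe sets averaged.

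Leaving out 1 KO array gave 218 to 626 genes higher and 519 to 567 lower than WT low-fat, with 0 (without KO array 2) to 2 (without KO array 1) of the 8 genes higher. Against WT high-fat it gave 177 to 515 higher and 148 to 2291 lower, with 0 (without KO array 1) to 3 (without KO array 2) of the 8 genes lower. Small KO differences changed sign with scaling. Against WT low-fat, quantile normalization gave 0.0113 for Ehd1, 0.0388 for Inhbb and 0.0410 for Wnt5a, and centring gave 0.0021 for Wnt5a. Against WT high-fat, quantile normalization gave 0.0237 for Cdkn1c, 0.0697 for Ehd1 and 0.0241 for Npr2, and centring gave −0.0081 for Apln.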
